A study of Homo sapiens with 9 samples.

Results

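The 41 genes described here encode the enzymes of glycolysis, the transporters and regulators around that pathway, the alpha subunits of hypoxia-inducible factor (HIF) with their oxygen sensors, and genes that HIF is known to switch on when oxygen is low. They were taken by symbol as 17 glycolytic enzymes, 6 glucose and lactate transporters and glycolytic regulators, 4 HIF subunits and oxygen sensors and 14 HIF targets. All 41 were found among the 26364 gene names of the count table. RNA-seq was done on polyA RNA of A549 cells, a human lung adenocarcinoma line, in 9 libraries of 4 groups. The control group (2 libraries) was labelled as wild type. The *LA* group (2 libraries) carried guide RNAs named sgLOC388942 and sgALK, which were used to produce the *LOC388942-ALK* fusion. The sgScr group (3 libraries) carried the same guide pair with a scramble guide added, and the sgFOS group (2 libraries) carried the guide pair with a guide against *FOS* added. Every group except control therefore carried the fusion guides. According to the methods, guides were delivered by lentivirus to A549 cells that express Cas9, and fusion cells were grown out from single cells. The labels do not say whether replicates were separate cultures or clones, nor which *FOS* guide a library had, so the p-values measure only the spread between these libraries, which may be technical.

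Glycolysis splits glucose into pyruvate, and lactate dehydrogenase turns pyruvate into lactate, which leaves the cell through monocarboxylate transporters. Many tumors, lung adenocarcinoma among them, run this pathway fast even where oxygen is present. The HIF alpha subunits, *HIF1A* and *EPAS1* (HIF-2 alpha), are made continuously, and with oxygen present the prolyl hydroxylases *EGLN1* and *EGLN3* mark them for destruction, so that a large share of their regulation acts on protein and not on RNA. Stable HIF alpha pairs with ARNT and binds short DNA elements with the core ACGTG or GCGTG near its target genes. FOS pairs with JUN proteins to form AP-1, which binds elements such as TGANTCA.

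Because FOS and HIF both act through short DNA elements, promoters of members that fell after *FOS* editing are shown first, chosen among those that hold a HIF core. Of the 41 members, 24 had exactly 1 promoter window in the RefSeq table for GRCh38.p14, each with 250 bases before the annotated start and 50 bases after it. The 6 windows printed here belong to members called lower in sgFOS cells whose only window holds ACGTG, and they run 5′ to 3′ on the strand of the gene. Capitals mark the HIF core ACGTG or GCGTG on either strand. They also mark the AP-1 letters TGANTCA, which read the same way on both strands. Where ACGTG matches on both strands at once, it counts as 2 overlapping matches. *EGLN3*, which also fell, has 1 window without a match to any of these letters and is not printed, and the other members that fell do not have exactly 1 window. The windows are chr9:35673678-35673977 on the plus strand for *CA9*, chr19:8363905-8364204 on the plus strand for *ANGPTL4* and chr3:4979187-4979486 on the plus strand for *BHLHE40*. The other windows are chr10:73096817-73097116 on the minus strand for *P4HA1*, chrX:78103998-78104297 on the plus strand for *PGK1* and chr17:28576846-28577145 on the minus strand for *ALDOC*.
CA9: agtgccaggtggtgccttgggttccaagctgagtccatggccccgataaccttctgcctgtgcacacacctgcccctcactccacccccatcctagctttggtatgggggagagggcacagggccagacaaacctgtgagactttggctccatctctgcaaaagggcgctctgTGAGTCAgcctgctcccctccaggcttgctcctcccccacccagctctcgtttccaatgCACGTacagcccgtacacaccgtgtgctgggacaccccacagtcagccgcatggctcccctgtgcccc
ANGPTL4: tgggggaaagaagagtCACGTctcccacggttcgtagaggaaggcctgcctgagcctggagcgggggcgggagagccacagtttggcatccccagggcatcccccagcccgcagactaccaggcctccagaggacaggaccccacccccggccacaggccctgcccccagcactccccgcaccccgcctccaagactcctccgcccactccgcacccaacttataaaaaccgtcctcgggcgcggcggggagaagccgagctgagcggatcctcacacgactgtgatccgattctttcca
BHLHE40: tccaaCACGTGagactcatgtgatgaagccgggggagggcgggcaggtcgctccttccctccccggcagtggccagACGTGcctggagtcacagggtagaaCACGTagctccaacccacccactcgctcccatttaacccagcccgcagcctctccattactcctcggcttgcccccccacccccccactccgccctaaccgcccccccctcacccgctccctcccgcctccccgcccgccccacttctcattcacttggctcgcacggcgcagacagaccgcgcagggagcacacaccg
P4HA1: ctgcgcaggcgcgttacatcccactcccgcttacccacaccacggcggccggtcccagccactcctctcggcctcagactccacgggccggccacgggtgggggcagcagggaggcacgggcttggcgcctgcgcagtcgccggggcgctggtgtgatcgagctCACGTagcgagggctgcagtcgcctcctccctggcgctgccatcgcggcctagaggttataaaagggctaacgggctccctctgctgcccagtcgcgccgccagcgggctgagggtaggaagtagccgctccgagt
PGK1: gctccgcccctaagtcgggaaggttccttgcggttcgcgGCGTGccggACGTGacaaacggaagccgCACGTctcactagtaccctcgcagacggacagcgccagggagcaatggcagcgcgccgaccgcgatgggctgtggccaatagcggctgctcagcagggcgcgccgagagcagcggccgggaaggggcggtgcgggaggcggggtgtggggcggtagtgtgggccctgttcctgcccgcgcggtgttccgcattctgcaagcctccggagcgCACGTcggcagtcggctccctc
ALDOC: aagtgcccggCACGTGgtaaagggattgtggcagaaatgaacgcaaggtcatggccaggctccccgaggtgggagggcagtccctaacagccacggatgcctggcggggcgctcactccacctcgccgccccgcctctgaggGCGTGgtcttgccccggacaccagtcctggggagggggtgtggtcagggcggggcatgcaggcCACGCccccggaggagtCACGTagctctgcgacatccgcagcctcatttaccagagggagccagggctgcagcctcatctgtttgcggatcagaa

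*CA9*, which encodes a carbonic anhydrase of the cell surface, has ACGTG at -18 to -14 from its start and is the single window shown that also holds TGANTCA, at -77 to -71. Among the 24 members with 1 window, 21 held ACGTG or GCGTG (87.5%), against 47.3% of the 22114 genes with 1 window of that length. ACGTG alone was present in 12 of them and in 21.3% of all windows. TGANTCA was present in 2 of them, *ENO2* and *CA9*, and in 8.05% of all windows. A match describes letters in these windows and not binding, and the members include genes known as HIF targets.

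Total counts per library ranged from 14507228 to 20456341. *FOS* had 167 and 155 counts in control, 5448 and 1660 in *LA*, 4198, 4037 and 3528 in sgScr, and 1008 and 1113 in sgFOS libraries, so *FOS* RNA was lowered but present in the sgFOS libraries. *ALK* had 0 and 0 counts in control, 2 and 15 in *LA*, 4, 1 and 3 in sgScr, and 2 and 0 in sgFOS libraries, so its gene count hardly separated the groups labelled with the fusion from control, and all groups are named here by their labels and guides. The control libraries were far apart (chi-square per degree of freedom 125 between their counts), as were the *LA* libraries (58.1), whereas replicates of sgScr and sgFOS differed by 1.74 to 2.65. Control replicate 1 had a TMM scaling factor of 0.799, against 0.986 to 1.07 in the other 8 libraries. In *LA* against control, fold changes rose with transcript length over genes (Spearman 0.58), so values from a second fit, adjusted for length and GC content of transcripts (the length and GC fit), are given beside the called members. The deviation of genes from their mean over the 9 libraries also followed length. Its Spearman correlation with length was -0.574 and -0.544 in the control libraries and 0.275 to 0.406 in the other 7. Of 9 markers of lung adenocarcinoma epithelium, 7 had over 3 counts in all libraries, *NKX2-1* had 3 or fewer counts throughout, and the summed level of the list was 13579 to 24668 CPM in control, 7866 to 12960 in *LA*, 6971 to 7410 in sgScr and 8282 to 8508 in sgFOS libraries. The 7 fibroblast markers summed to between 7.53 and 18.9 CPM and the 7 leukocyte markers to between 13.1 and 43.9 CPM, highest in control, with *COL1A2*, *DCN*, *PDGFRB*, *PTPRC* and *CD3E* at 3 or fewer counts in every library. The part of these differences in the results below was not tested, and in bulk RNA fewer cells with a transcript and less transcript per cell cannot be told apart.

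Levels are CPM, read counts scaled to a common library size after TMM normalisation over the 9 libraries, given in the order of the replicate numbers. All 41 members passed the filter on low counts in all 3 comparisons. DESeq2, an alternative test, was run without that filter, and genes to which it gave no adjusted p count as not called. Its totals therefore include genes with very few counts, and its shares of genes called are not on the same base as those of edgeR. Where the groups of a called member do not overlap, the same libraries gave the call, so the separation adds no evidence. The share of all genes whose groups do not overlap was not computed for any of the 3 comparisons.

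The glycolytic enzymes spanned a wide range of levels, and together they took a smaller share of the counts in the libraries with the fusion guides than in control libraries. Per kilobase of transcript, *GAPDH*, which oxidises glyceraldehyde 3-phosphate, was the highest member in every library, at 2858 to 9699 CPM per kb. *ENO1*, the main enolase (1237 to 3023 CPM per kb), and *PKM*, which makes pyruvate (1352 to 2364 CPM per kb), followed, and their ranges overlapped. *ENO1* lay above *PKM* in the control, sgScr and sgFOS libraries, and *PKM* lay above *ENO1* in both *LA* libraries. At the other end, *HK2* had 0.388 to 0.770 CPM per kb and *ALDOC* 1.24 to 9.65 CPM per kb.

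The main hexokinase, aldolase and enolase were the same in all libraries on the per-length scale. *HK1* made up 98.3 to 99.1% of the hexokinase pair, *ALDOA* 99.2 to 99.8% of the aldolase pair and *ENO1* 98.3 to 99.2% of the enolase pair. *PFKP* made up 72.2 to 82.3% of the phosphofructokinases, and *PFKL* 22.3% in control replicate 1 and 10.5 to 17% in the others. *LDHA* made up 47.4 and 56.1% of lactate dehydrogenase in control, 58.5 and 59.5% in *LA*, 49.4 to 49.7% in sgScr, and 48.3 and 49.0% in sgFOS libraries. The *LA* libraries therefore had the largest *LDHA* share of the 9, with control replicate 2 next.

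The 17 enzymes together took 2.972 and 3.026% of all counts in control libraries, 1.795 and 1.755% in *LA*, 2.131, 2.139 and 2.203% in sgScr, and 2.162 and 2.116% in sgFOS. The 4 groups separated into control at the top, *LA* at the bottom, and sgScr with sgFOS between them, whose ranges overlapped. *GAPDH* alone took 0.9952 and 1.034% in control and 0.393 to 0.562% in the other 7 libraries. These shares were not corrected for the trend with transcript length.

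**Figure D1:**
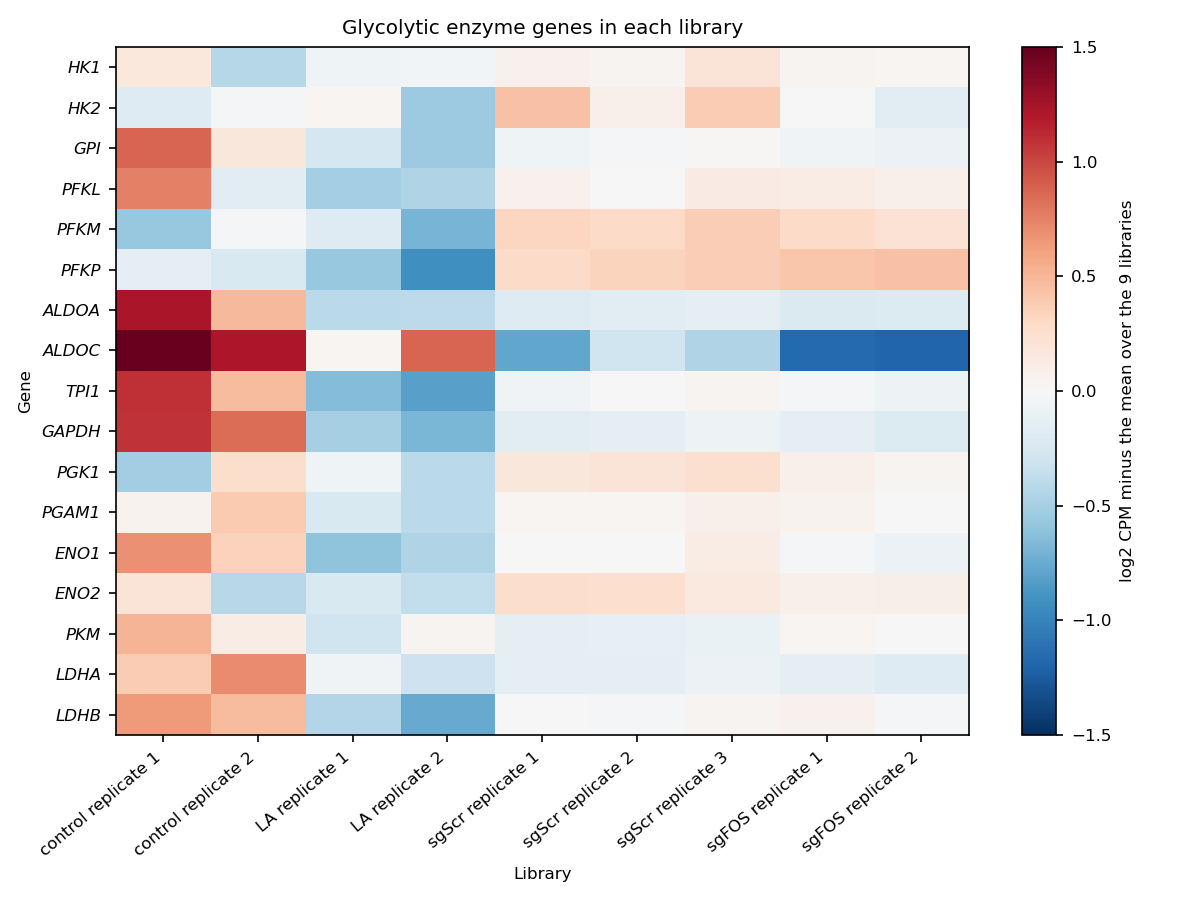
Level of each glycolytic enzyme gene (rows) in each of the 9 libraries (columns), as log2 CPM minus the gene's mean over the 9 libraries, with red above and blue below that mean. *ALDOA*, *TPI1* and *GAPDH* are red in both control libraries and pale or blue elsewhere, and *ALDOC* is darkest blue in the 2 sgFOS libraries.

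The comparison of *LA* with control asks how cells labelled with the fusion differ from wild type A549. In simulated counts with the spread of these libraries, 0% of genes changed 2-fold and 54.5% of those changed 4-fold were called. A member not called here may therefore still differ. Of the 17 glycolytic enzymes, 3 fell in *LA* cells (*ALDOA*, *TPI1* and *GAPDH*) and 0 rose, where 9.94% of all 14425 genes tested were called lower and 9.57% higher, 19.5% in all. Of all 14425 genes tested, 2472 were lower and 2505 higher at an unadjusted p under 0.05 in edgeR. DESeq2 called 1816 of 19753 genes lower and 1574 higher. Of the 17 enzymes, 8 were lower and 0 higher at that unadjusted p, and DESeq2 called 6 lower and 0 higher. The log2 fold changes were negative for 16 of the 17, with a median of -0.76, against 0.044 over all genes tested. Scaled by library size alone, which moved the median of all genes to 0.33 and the calls over all genes from 1380 higher and 1434 lower to 1601 and 682, 12 of 17 were negative with a median of -0.48, and without LA replicate 2, 13 of 17 were.

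*GAPDH* (chr12:6643678-6647540 on GRCh37, plus strand) had 12464 and 10492 CPM in control, 4176 and 3672 in *LA*, 5243, 5354 and 5563 in sgScr, and 5319 and 5093 in sgFOS libraries. Every library with the fusion guides lay below both control libraries. Its log2 fold change in *LA* against control was -1.57 (SE 0.46, adjusted p = 0.0204, edgeR quasi-likelihood test with Benjamini-Hochberg adjustment), and -0.72 in the length and GC fit (adjusted p = 0.165).

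*TPI1*, triose phosphate isomerase (chr12:6976283-6980112, plus strand, overlapping *SPSB2* on the other strand), had 1765 and 1146 CPM in control, 528 and 468 in *LA*, 796, 825 and 849 in sgScr, and 813 and 785 in sgFOS libraries. As for *GAPDH*, control was highest and *LA* lowest. The log2 fold change was -1.57 (SE 0.44, adjusted p = 0.015 from edgeR), or -0.78 in the length and GC fit (adjusted p = 0.0873).

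*ALDOA*, the main aldolase (chr16:30075485-30081778, plus strand), had 3382 and 2037 CPM in control, 1095 and 1108 in *LA*, 1264, 1299 and 1321 in sgScr, and 1252 and 1258 in sgFOS libraries. The control libraries were apart from each other but both above all others. In *LA* against control the log2 fold change was -1.32 (SE 0.45, adjusted p = 0.0402 from edgeR), or -0.50 in the length and GC fit (adjusted p = 0.268).

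Further enzymes had negative values that were not called, *LDHB* with -1.16 (SE 0.43, adjusted p = 0.0577 from edgeR), *ENO1* with -1.07 (SE 0.45, adjusted p = 0.089), *GPI* with -0.98 (adjusted p = 0.118) and *LDHA* with -0.755 (adjusted p = 0.229). *GPI*, glucose-6-phosphate isomerase, had 2493 and 1528 CPM in control and 1133 and 933 in *LA* libraries. It was the single enzyme called in the length and GC fit, at -1.19 (adjusted p = 0.0394 from edgeR), where 5.86% of genes were called lower and 5.97% higher, and the median of the 17 was then -0.50. Without that correction, the median was -0.80 without LA replicate 1, -0.61 without LA replicate 2 and -0.72 without control replicate 2. Enzyme calls also changed when each of these libraries was left out, as calls over all genes did. *GAPDH*, *LDHA*, *PGAM1* and other enzymes also have processed pseudogenes whose reads the counting could have split off.

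**Figure D2:**
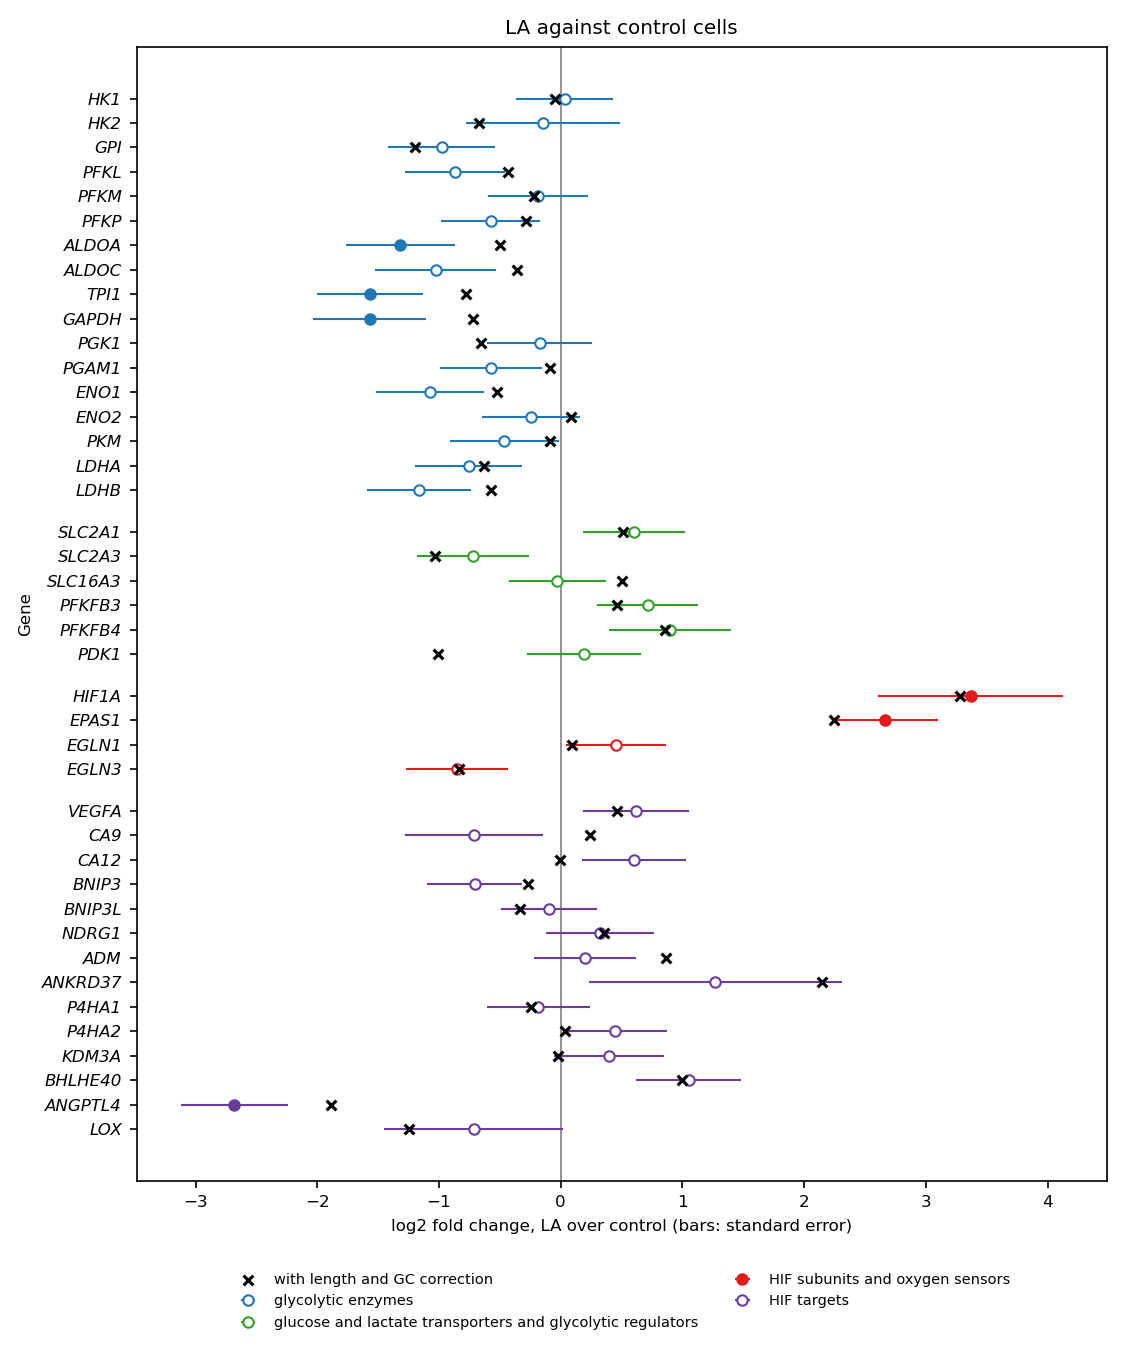
Log2 fold change of each of the 41 genes in *LA* over control cells (x axis), with bars for the standard error, filled points for genes called at an adjusted p under 0.05 and crosses for the value in the length and GC fit. Filled points are *ALDOA*, *TPI1* and *GAPDH* near -1.5, *HIF1A* and *EPAS1* on the right and *ANGPTL4* on the left, and most crosses of the glycolytic enzymes lie nearer to 0 than their points.

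Among all 9 libraries, 9 of the 17 enzymes lay below both control libraries in each of the 7 libraries with the fusion guides, namely *GPI*, *ALDOA*, *ALDOC*, *TPI1*, *GAPDH*, *ENO1*, *PKM*, *LDHA* and *LDHB*. Over all genes this held for 22% of 14849. None of the 17 lay above both controls in all 7, against 24.3% of all genes. These levels were not corrected for transcript length, whose trend also differed between control and the other 7 libraries. Its part in this separation was not tested.

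The comparison of sgFOS with sgScr asks what changed in cells with the fusion guides when *FOS* was edited. The glycolytic enzymes differed little between these groups, with a median log2 fold change of -0.044 against -0.0015 over all genes, and with 2 enzymes called higher and 2 lower, where 12.2% of all 14196 genes tested were called higher and 10.5% lower, 22.7% in all. *PKM* had 3456, 3507 and 3560 CPM in sgScr and 3890 and 3803 in sgFOS libraries, and *PFKP*, the platelet phosphofructokinase, had 643, 665 and 681 CPM in sgScr and 701 and 717 in sgFOS libraries. Both sgFOS libraries lay above all sgScr libraries for these genes, with log2 fold changes of 0.14 (SE 0.033, adjusted p = 0.00187 from edgeR) and 0.10 (SE 0.034, adjusted p = 0.0301).

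*PGK1*, phosphoglycerate kinase, had 751, 762 and 790 CPM in sgScr and 707 and 690.3 CPM in sgFOS libraries, a log2 fold change of -0.13 (SE 0.034, adjusted p = 0.00388 from edgeR). *ALDOC*, the brain aldolase, was at low counts, with 56, 76 and 58 in sgScr and 30 and 30 in sgFOS libraries. The groups did not overlap for either gene, and *ALDOC* had the largest change of the 17, with a log2 fold change of -0.67 (SE 0.25, adjusted p = 0.0441 from edgeR). *PGK1* overlaps *ATP7A* and *PGAM4*, so its counts may hold or have lost shared reads. In sgFOS against sgScr, fold changes rose with GC content over genes (Spearman 0.261). In the length and GC fit 1 enzyme, *PKM*, was called higher and 7 lower, where 10.6% and 10.4% of genes were called. *PFKP* was not called in that fit. In 1 model of all 9 libraries edgeR called 0 of the 17 (0 also at an unadjusted p under 0.05). In edgeR on the sgFOS and sgScr libraries alone, the median was -0.066 without sgFOS replicate 1 and -0.0235 without sgFOS replicate 2. Fewer enzymes were then called, as were fewer of all genes.

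The sgScr and *LA* groups both carried the fusion guides with no *FOS* guide, so their comparison shows how far cells with these guides differed between groups in which *FOS* was not targeted. It shares the *LA* libraries with the first comparison and the sgScr libraries with the second. Of the 17 enzymes, 9 rose in sgScr against *LA* and 0 fell, where 10.6% of all 14521 genes tested were called higher and 12.3% lower, 22.9% in all. Of all 14521 genes, 2665 were higher and 3098 lower at an unadjusted p under 0.05 in edgeR. DESeq2 called 1786 of 20068 genes higher and 1909 lower. Of the 17 enzymes, 12 were higher and 1 lower at that unadjusted p. DESeq2 called 11 of them higher and 1 lower, the last being *ALDOC*. The median log2 fold change was 0.44, against -0.016 over all genes.

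*PFKP* rose most, by 1.05 on the log2 scale (SE 0.12, adjusted p = 0.00505 from edgeR), from 354 and 278 CPM in *LA*. *PFKM* rose by 0.73 (adjusted p = 0.025), from 55.4 and 38.9 CPM in *LA* to 78.9, 77.0 and 81.5 CPM in sgScr libraries. The remaining calls were *TPI1* at 0.71, *LDHB* at 0.58, *ENO1* at 0.54, *PFKL* at 0.53, *ENO2* at 0.50, *GAPDH* at 0.44 and *PGAM1* at 0.34. For these 9 genes both *LA* libraries lay below all sgScr libraries, which adds no evidence, as the same libraries gave the calls. The median of the 17 was 0.52 without LA replicate 1 and 0.26 without LA replicate 2. The number called higher was 1 without sgScr replicate 1 or 2, and 0 without sgScr replicate 3. Over all genes, those 3 fits called 222 of 14345, 203 of 14345 and 171 of 14480 higher.

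Among the 6 transporters and regulators, 0 were called in *LA* against control in either direction, by edgeR or DESeq2. Of all genes tested, edgeR called 19.5% in either direction, so 0 of 6 does not set this list apart. At an unadjusted p under 0.05, 0 of the 6 passed in edgeR, where 2505 of 14425 genes were higher and 2472 lower. A single model of all 9 libraries called 1 of the 6 higher, and 3552 of 14849 genes. *SLC2A1*, the main glucose transporter of most tumors, had 121 and 186 CPM in control, 179 and 298 in *LA*, 174, 174 and 180.2 in sgScr, and 186 and 180.3 in sgFOS libraries. *PFKFB3*, which makes the phosphofructokinase activator fructose 2,6-bisphosphate, had 308 and 400.3 CPM in control, 591 and 595 in *LA*, 599, 599 and 609 in sgScr, and 634 and 648 in sgFOS libraries. Both control libraries were the lowest of the 9 for *PFKFB3*, which held for 24.3% of all genes, whereas *SLC2A1* overlapped between groups.

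After *FOS* editing, *SLC2A3*, a glucose transporter of high affinity, fell and *PFKFB3* rose, the latter by 0.095 on the log2 scale (SE 0.033, adjusted p = 0.0344 from edgeR). These were 1 lower and 1 higher of the 6, where 10.5% of all genes were called lower and 12.2% higher. *PFKFB3* was not called in the length and GC fit, where the highest of the 6 values was 0.030. In that fit 0 of the 6 were called higher, against 10.6% of all genes. *SLC2A3* had 47.0 and 40.6 CPM in control, 13.9 and 40.3 in *LA*, 37.4, 36.5 and 34.2 in sgScr, and 26.4 and 27.8 in sgFOS libraries. The *LA* libraries disagreed with each other, while both sgFOS libraries lay below all sgScr libraries. Its log2 fold change in sgFOS against sgScr was -0.41 (SE 0.071, adjusted p = 3.00e-05 from edgeR), and -0.40 in the length and GC fit. *SLC2A3* made up 15.9, 15.7 and 14.4% of the 2 glucose transporters per length in sgScr and 11.1 and 12.0% in sgFOS libraries.

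In sgScr against *LA*, *SLC16A3*, a lactate exporter, rose and *PFKFB4*, an isozyme of *PFKFB3*, fell. These were 1 higher and 1 lower of the 6, where 10.6% of all genes were called higher and 12.3% lower. *SLC16A3* had 185 and 151 CPM in *LA* and 252, 251 and 277 in sgScr libraries, a log2 fold change of 0.61 (SE 0.12, adjusted p = 0.0184 from edgeR). *PFKFB4* had 14.3 and 8.14 CPM in control, 10.9 and 31.7 in *LA*, 5.81, 6.66 and 6.95 in sgScr, and 6.65 and 6.79 in sgFOS libraries. LA replicate 2 stood above the rest, and the log2 fold change of -1.74 (SE 0.42, adjusted p = 0.0334) became -0.77 without that library. *PDK1*, a kinase that blocks pyruvate entry into mitochondrial oxidation, had 7.99 to 12.5 CPM in the 9 libraries and was not called in any comparison.

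The RNA of both HIF alpha subunits was higher in *LA* than in control cells. They were the 2 called of the 4 HIF subunits and sensors, where 9.57% of all genes were called higher and 9.94% lower. *EPAS1* (chr2:46520806-46613836, plus strand) had 60.4 and 90.5 CPM in control, 521 and 455 in *LA*, 238, 236 and 249 in sgScr, and 270.2 and 261 in sgFOS libraries. The groups of control, sgScr with sgFOS, and *LA* stood apart in that order, with no overlap. Its log2 fold change in *LA* against control was 2.67 (SE 0.44, adjusted p = 0.00059 from edgeR), 2.24 in the length and GC fit, and 2.36 to 2.93 when single libraries were left out.

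*HIF1A* (chr14:62162231-62214977, plus strand, overlapping *HIF1A-AS1* on the other strand) had 107 and 2581 counts in the control libraries, or 6.92 and 152 CPM. It had 988 and 703 CPM in *LA*, 325, 329.9 and 315 in sgScr, and 308 and 301 in sgFOS libraries. All 7 libraries with the fusion guides were above both controls, but control replicate 2 was 22 times control replicate 1, a log2 ratio of 4.37 that ranked 2 among 14849 genes. The fitted log2 fold change was 3.37 (SE 0.76, adjusted p = 0.00419 from edgeR). In the length and GC fit it was 3.28 (adjusted p = 0.0331). Without control replicate 1 it was 2.40 and without control replicate 2 it was 6.85, and the DESeq2 Wald test gave an adjusted p of 0.125 for 3.37.

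*HIF1A* made up 13.0% of the alpha subunit pair per length in control replicate 1 and 59.8 to 71.3% in the other 8 libraries. The 2 sensors were not called in *LA* against control. *EGLN1* had 125 and 213 CPM in control and 235 and 237 in *LA* libraries, and *EGLN3* 34.3 and 48.1 in control and 24.1 and 22.3 in *LA* libraries. Their log2 fold changes in *LA* against control were 0.46 (adjusted p = 0.458 from edgeR) and -0.85 (adjusted p = 0.15), in that order.

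**Figure D3:**
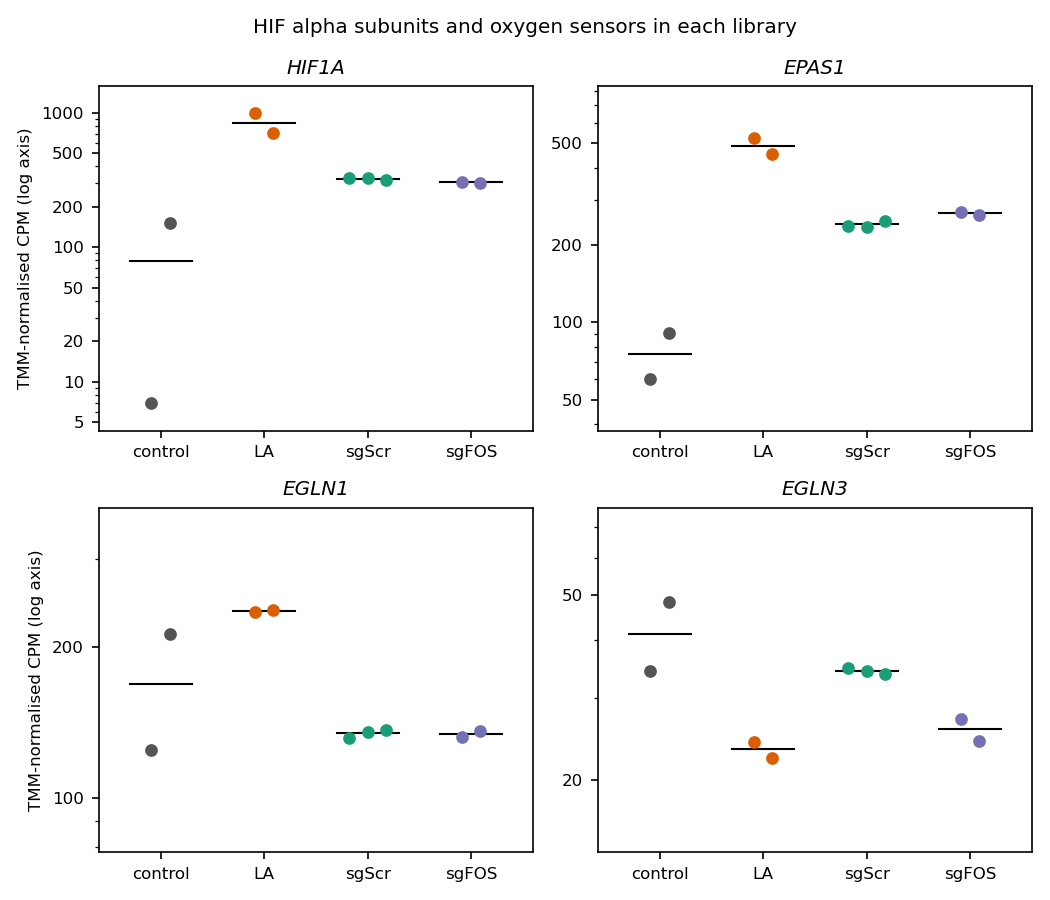
Level of the HIF alpha subunits and oxygen sensors in each library by group (CPM, log axis), with points for libraries and lines for group means. Control replicate 1 stands far below every other library for *HIF1A*, and the *LA* libraries are highest for *HIF1A*, *EPAS1* and *EGLN1* and lowest for *EGLN3*.

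After *FOS* editing *EPAS1* rose and *EGLN3* fell, where 12.2% of all genes were called higher and 10.5% lower. *HIF1A* and *EGLN1* were not called. *EGLN3*, itself known to be induced by HIF, had 34.8, 34.2 and 33.7 CPM in sgScr and 27.1 and 24.2 in sgFOS libraries. Its groups stood well apart, with a log2 fold change of -0.41 (SE 0.073, adjusted p = 3.33e-05 from edgeR) and the same value in the length and GC fit. *EPAS1* changed by 0.15 (SE 0.037, adjusted p = 0.00267), and *HIF1A* had -0.082 (SE 0.035, adjusted p = 0.0948).

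In sgScr against *LA*, all 4 were called, where 22.9% of all genes were called in either direction. *HIF1A* fell by 1.41 on the log2 scale (SE 0.15, adjusted p = 0.00359 from edgeR), *EPAS1* fell by 1.04 and *EGLN1* fell by 0.83, while *EGLN3* rose by 0.54 (adjusted p = 0.0153). For each of them the 2 groups did not overlap.

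Of the 14 HIF targets, 1, *ANGPTL4*, fell in *LA* against control and 0 rose, where 9.94% of all genes were called lower and 9.57% higher. The log2 fold changes were positive for 8 and negative for 6, with a median of 0.26, and with library size alone they were positive for 10. Over all genes, 2505 of 14425 were higher and 2472 lower at an unadjusted p under 0.05 in edgeR. DESeq2 called 1574 of 19753 genes higher and 1816 lower. Of the 14 targets, 1 was higher and 1 lower at that unadjusted p, and DESeq2 called 0 higher and 1 lower. The median was 0.011 in the length and GC fit, while without control replicate 1 it was -0.014, and without LA replicate 2 it was -0.012.

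*ANGPTL4*, a secreted inhibitor of lipoprotein lipase (chr19:8428173-8439254 on GRCh37, plus strand), had 89.7 and 62.4 CPM in control, 14.005 and 9.95 in *LA*, 37.9, 43.0 and 39.9 in sgScr, and 34.9 and 33.6 in sgFOS libraries. No group overlapped another, and the *LA* libraries were lowest. Its log2 fold change in *LA* against control was -2.68 (SE 0.44, adjusted p = 0.00059 from edgeR), and -1.89 in the length and GC fit (adjusted p = 0.00832). Without LA replicate 2 it was -2.43 and not called, in a fit where fewer of all genes were called too.

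Several targets differed between replicates of a group as widely as between groups. *BHLHE40*, a circadian repressor (chr3:5021122-5027008, overlapping *BHLHE40-AS1*), had 93.9 and 114 CPM in control, 296 and 141 in *LA*, 238, 237 and 213 in sgScr, and 193 and 200.5 in sgFOS libraries. Control was lowest throughout, and the log2 fold change of 1.05 in *LA* (SE 0.43, adjusted p = 0.0847 from edgeR) was not called and was 0.38 without LA replicate 1 and 1.51 without LA replicate 2. *NDRG1*, a stress response gene, had 59.5 and 176 CPM in the 2 *LA* libraries and 95.2 and 89.2 in control, so that *LA* lay on both sides of control. *CA9* had 16.9 and 7.61 CPM in control and 11.9 and 3.13 in *LA* libraries, which overlapped.

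Over the 9 libraries, *VEGFA* (the angiogenic growth factor), *CA12* (a carbonic anhydrase), *P4HA2* (a collagen prolyl hydroxylase) and *BHLHE40* lay above both controls in all 7 libraries with the fusion guides, 4 of 14 targets, where this held for 24.3% of all genes. *BNIP3*, a mitophagy receptor, and *ANGPTL4* lay below both, 2 of 14, where this held for 22% of all genes. These levels too were not corrected for transcript length. *VEGFA* had 15.0 and 24.8 CPM in control and 25.6 to 40.4 in the others, and *BNIP3* had 114 and 120.1 CPM in control and 66.5 to 79.2 in the others. *CA12* made up 90.8% of the carbonic anhydrase pair per length in control replicate 1, 96.5 to 98.8% in the next 3 libraries and 99.0 to 99.8% in sgScr and sgFOS.

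In sgFOS against sgScr the HIF targets leaned to lower levels. Of the 14, 7 fell and 0 rose, and 12 had negative log2 fold changes, with a median of -0.18 against -0.0015 over all genes, where 10.5% of genes were called lower. Over all genes, 2334 of 14196 were lower and 2478 higher at an unadjusted p under 0.05 in edgeR. DESeq2 called 828 of 19742 genes lower and 989 higher. Of the 14 targets, 10 were lower and 0 higher at that unadjusted p, and DESeq2 called 5 lower and 0 higher. Without sgFOS replicate 2 their median was -0.176, and fewer of them were called lower, as were fewer of all genes. The members that fell were *CA9*, *NDRG1*, *KDM3A*, *ANGPTL4*, *BHLHE40*, *P4HA1* and *BNIP3L*.

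*CA9* (chr9:35673925-35681156 on GRCh37, plus strand, overlapping *ARHGEF39* on the other strand) had 63, 56 and 46 counts in sgScr and 8 and 10 counts in sgFOS libraries, or 2.999, 2.72 and 2.64 CPM and 0.543 and 0.666 CPM. The sgFOS libraries were the lowest of all 9. Its log2 fold change was -2.19 (SE 0.33, adjusted p = 3.17e-06 from edgeR), a 4.57-fold difference at low counts and the largest of the 41 members in this comparison. Leaving out single libraries gave -2.35 to -2.06.

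*NDRG1* had 121, 122 and 126 CPM in sgScr and 99.1 and 97.5 in sgFOS libraries, and its log2 fold change was -0.32 (SE 0.042, adjusted p = 2.05e-07 from edgeR). *KDM3A*, a histone demethylase, had 62.4, 59.4 and 63.7 CPM in sgScr and 50.4 and 51.3 in sgFOS libraries, with -0.28 (SE 0.055, adjusted p = 0.000176). In both cases the replicates were close and the groups clearly apart, while the *LA* libraries spread over a wider range than either group.

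*ANGPTL4* changed by -0.23 (SE 0.067, adjusted p = 0.0105 from edgeR) and *BHLHE40* by -0.22 (SE 0.041, adjusted p = 0.000123). *P4HA1*, a collagen prolyl hydroxylase, had 63.7, 67.0 and 69.4 CPM in sgScr and 59.7 and 56.0 in sgFOS libraries, with -0.20 (SE 0.054, adjusted p = 0.00546). *BNIP3L*, a mitophagy receptor, had the smallest called change, -0.13 (SE 0.046, adjusted p = 0.0312), and was not called in the length and GC fit. All 7 were lower in 2 of 2 sgFOS libraries than in any sgScr library. The same libraries gave their calls, so this separation adds no evidence.

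**Figure D4:**
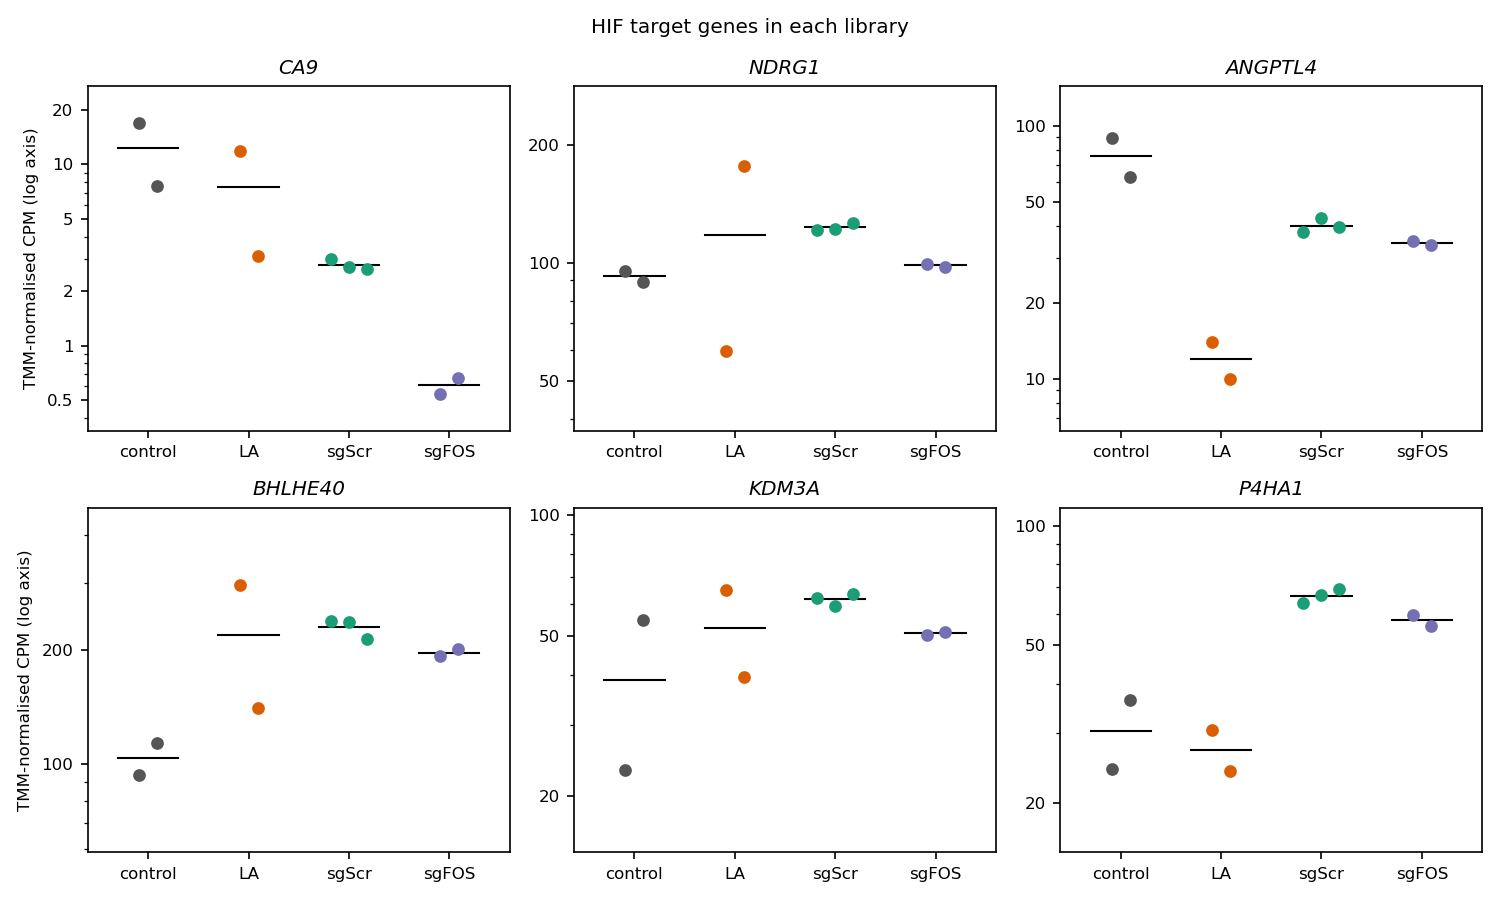
Level of 6 HIF targets in each library by group (CPM, log axes that differ between panels), with points for libraries and lines for group means. In each panel both sgFOS points lie below all 3 sgScr points, furthest for *CA9*, while the control and *LA* points spread more widely.

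Of the other 7 targets, *VEGFA* had -0.17 (adjusted p = 0.0586 from edgeR) and *ADM*, the vasodilator adrenomedullin, had -0.12 (adjusted p = 0.0502), and both were called in the length and GC fit. *LOX*, a collagen crosslinking enzyme, had 34, 58 and 33 counts in sgScr and 15 and 25 in sgFOS libraries, with -0.65 (SE 0.32, adjusted p = 0.14). *ANKRD37*, at 0 to 22 counts per library, and *P4HA2* had positive values that were not called, and *CA12* and *BNIP3* had -0.036 and -0.056.

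*ANGPTL4* and *BNIP3L* were not called without sgScr replicate 2 or without sgFOS replicate 2, and *P4HA1* was not called without sgFOS replicate 2. The number of calls changed further in 1 model of all 9 libraries. There the estimates were nearly the same, -2.19 for *CA9* and -0.32 for *NDRG1*, but their standard errors were 0.68 and 0.35 and 0 of the 14 targets were called (adjusted p = 1 for each, with 1 lower at an unadjusted p under 0.05). Over all genes that fit called 0 in either direction, with 310 higher and 134 lower at an unadjusted p under 0.05, and DESeq2 on the 5 libraries called 989 and 828.

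**Figure D5:**
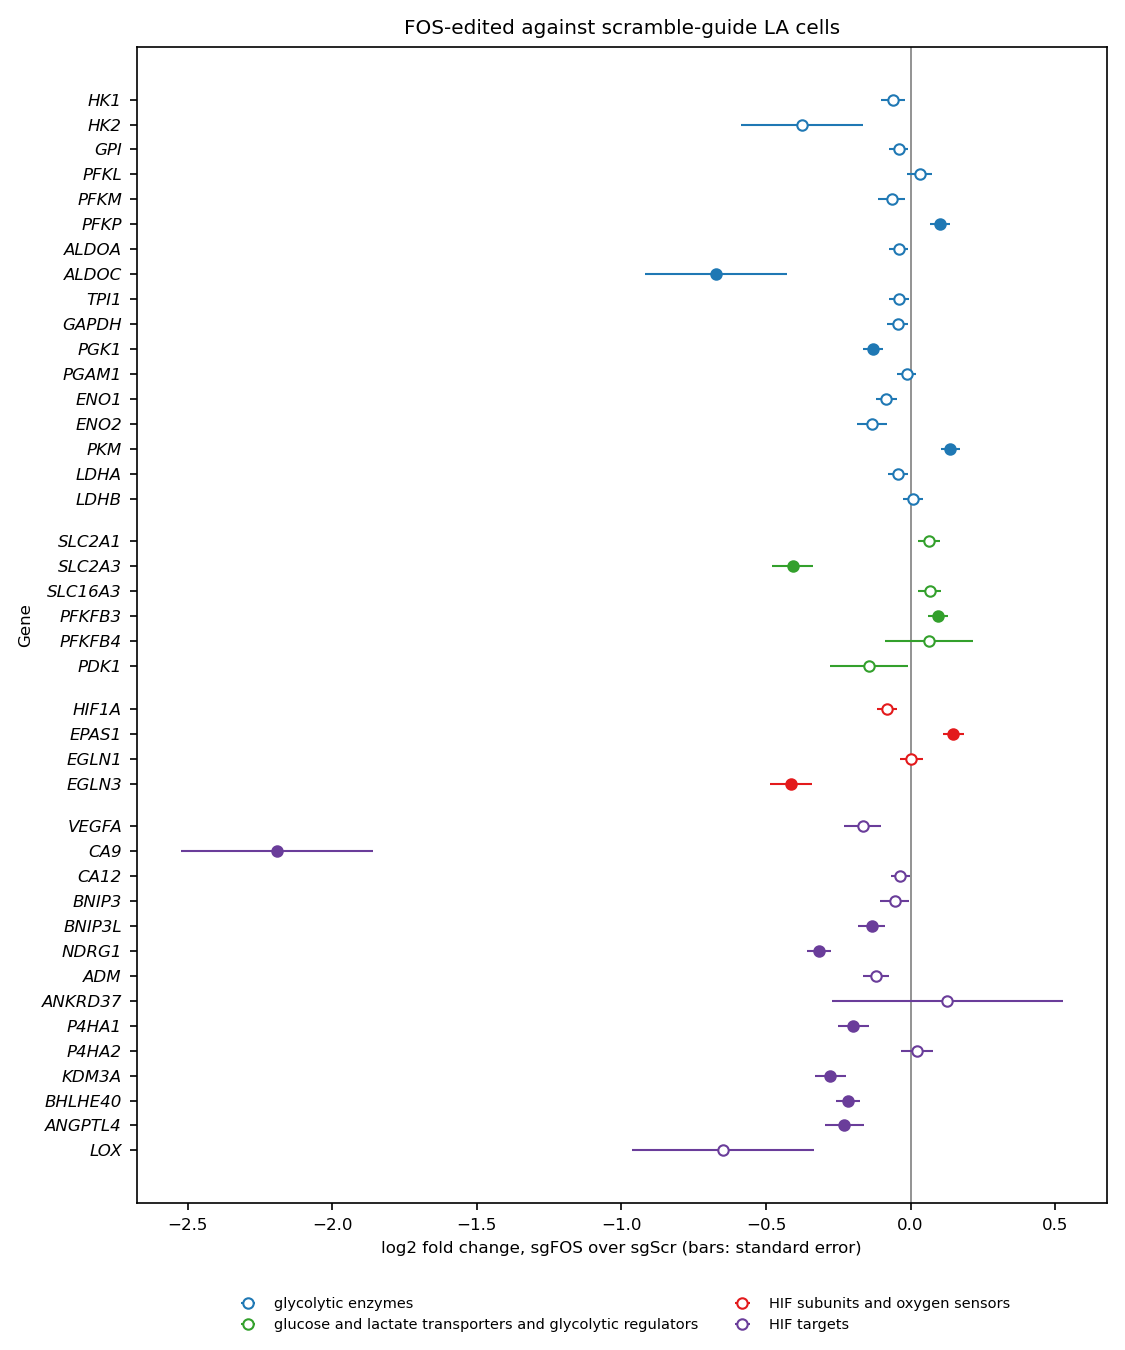
Log2 fold change of each of the 41 genes in sgFOS over sgScr cells (x axis), with bars for the standard error and filled points for genes called at an adjusted p under 0.05. *CA9* is furthest to the left, the HIF targets lie mostly left of 0, and most glycolytic enzymes lie near 0.

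In sgScr against *LA*, 3 of the 14 targets rose and 0 fell, where 10.6% of all genes were called higher and 12.3% lower. At an unadjusted p under 0.05, 1 was lower in edgeR, and DESeq2 called 1 lower. *ANGPTL4* rose by 1.73 (SE 0.17, adjusted p = 0.0031 from edgeR), *P4HA1* by 1.27 (SE 0.13, adjusted p = 0.00336) and *P4HA2* by 0.52 (adjusted p = 0.0341). *P4HA1* had 24.4 and 36.4 CPM in control and 30.5 and 24.1 in *LA* libraries, so that sgScr and sgFOS libraries were all above these 4. *CA9* had -1.44 (SE 0.52, adjusted p = 0.0931), or -0.17 without LA replicate 1. The median of the 14 was 0.16 without LA replicate 1, with 10 positive, and 0.615 without LA replicate 2, with 9 positive.

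Set side by side, *ANGPTL4* had log2 fold changes of -2.68 in *LA* against control, 1.73 in sgScr against *LA* and -0.23 in sgFOS against sgScr, and *EPAS1* had 2.67, -1.04 and 0.15. For *GAPDH* they were -1.57, 0.44 and -0.045. These comparisons share libraries, so their values are not independent of each other.

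Other genes of the same pathways were taken from 3 lists, to be read against the shares of all genes called higher and lower, 9.57% and 9.94% in *LA* against control, 12.2% and 10.5% in sgFOS against sgScr, and 10.6% and 12.3% in sgScr against *LA*. Of 39 tested genes of carbohydrate metabolism outside the members, 4 were called higher and 2 lower in *LA* against control, 8 and 9 in sgFOS against sgScr, and 7 and 5 in sgScr against *LA*. In *LA* cells the largest changes were those of *SLC16A7*, a monocarboxylate transporter, by 2.38 (1.32 in the length and GC fit), *PFKFB2*, an isozyme of *PFKFB3*, by 2.12 (1.38), and *HKDC1*, a hexokinase-like gene, by 1.65 (1.51). After *FOS* editing *TIGAR*, a fructose bisphosphatase, rose by 0.54 (SE 0.052, adjusted p = 1.52e-10 from edgeR) and *HKDC1* by 0.45, and *RPIA* of the pentose phosphate pathway fell by 0.39. *HKDC1* had 32.0 and 28.9 CPM in control, 81.8 and 113 in *LA*, 74.3, 83.1 and 87.3 in sgScr, and 110.5 and 110.6 in sgFOS libraries. In sgScr against *LA*, *PDK4*, an isozyme of *PDK1*, fell by 3.57 (SE 0.34, adjusted p = 0.003 from edgeR), from 118 and 51.1 CPM in *LA* to 6.997, 7.001 and 7.53 in sgScr libraries, *SLC16A7* fell by 1.72 and *MPC1*, a mitochondrial pyruvate carrier, fell by 1.31.

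Of 13 tested regulators of HIF, 3 were called higher and 3 lower in *LA* against control, 2 and 1 in sgFOS against sgScr, and 1 and 0 in sgScr against *LA*. The 3 largest changes in *LA* cells were in *TCEB2* (elongin B) and *RBX1*, parts of the ubiquitin ligase that removes HIF alpha, with -2.36 and -1.74, and in the coactivator *EP300*, with 2.19. Their values in the length and GC fit were -1.14, -0.98 and 1.41, all still called. After *FOS* editing *TCEB2* rose by 0.26, *VHL*, which recruits HIF alpha to that ligase, rose by 0.22, and *ARNT*, the partner of HIF alpha, fell by 0.24, or by 0.15 and without a call when sgFOS replicate 1 was left out. In sgScr against *LA*, *ARNT2* rose by 0.32 (adjusted p = 0.0472 from edgeR), and this call was lost in 12 of 16 alternative settings. Of the genes of these lists named for *LA* against control, *SLC16A7* was not called without LA replicate 1, *PFKFB2* and *EP300* were not called without LA replicate 2, and *HKDC1*, *TCEB2*, *RBX1*, *HILPDA* and *FAM162A* were not called when either *LA* library was left out.

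Of 32 further hypoxia response genes, 4 were called higher and 2 lower in *LA* against control, 7 and 9 in sgFOS against sgScr, and 7 and 2 in sgScr against *LA*. *HILPDA*, which coats lipid droplets, had 76.7 and 80.7 CPM in control, 22.4 and 20.6 in *LA*, 60.2, 60.0 and 59.4 in sgScr, and 45.8 and 40.4 in sgFOS libraries. The 4 groups did not overlap for *HILPDA*, and its log2 fold changes were -1.90 in *LA* against control (-1.22 in the length and GC fit), 1.46 in sgScr against *LA* and -0.47 in sgFOS against sgScr (adjusted p = 5.86e-08 from edgeR). *FAM162A*, a mitochondrial gene, changed by -1.84 in *LA* (-2.14 in the length and GC fit), *GADD45A*, a stress response gene, by 0.70 after *FOS* editing, and *DDIT4*, an inhibitor of mTORC1, by 1.49 and *RRAGD*, a GTPase, by -1.56 in sgScr against *LA*. After *FOS* editing this list therefore held genes called in both directions, with a median of 0.0041.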

How the data were processed

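RNA-seq counts of 9 A549 libraries in 4 groups were analysed, with groups and replicate numbers taken from the sample labels. The authors deposited raw read counts per gene, as whole numbers without normalization. Per the submitters' processing notes and the methods, stranded mRNA libraries with paired-end reads were aligned to hg19 with STAR 2.7.10b, and DESeq2 1.26.0 was used. How reads were assigned to genes (program, gene models and use of strand) is not given in the sources used here, so counts of overlapping or antisense genes and of close paralogs are uncertain.

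Counts were tested with edgeR 4.0.16 in R 4.3.3, by its quasi-likelihood test, fitted for each comparison to its own libraries after filterByExpr and TMM scaling. Tests were two-sided, p-values were adjusted over all genes tested by Benjamini-Hochberg, and genes were called at an adjusted p under 0.05. The length and GC fit took, as an offset, a loess curve (span 0.5) per library over transcript length and GC content. GENCODE on GRCh37 gave a length for 23785 of 26364 gene names. Total counts were 14507228 to 20456341, and the reads carry no molecular identifiers. Precision depended on depth and on the spread between replicates, which differed widely between groups (chi-square per degree of freedom 1.74 to 125).

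The members and lists were chosen with earlier results of these data known. A fold change is named where a member was called or where its list is described by it, and from each list of other genes the 3 called genes with the largest change are named, except where an item is not reported here. *ERO1A* stands for the older symbol *ERO1L*. Alternatives were DESeq2 1.42.0, its size factors, library size alone, other filters, other thresholds, all 9 libraries in 1 fit, a replicate block, the length and GC fit, and leaving out each library. With 1 library left in a group, that library is assumed to vary like the others. The scripts were tested on simulated counts with 200 changed genes. Of genes changed 1.5-fold, 2-fold and 4-fold, 0, 0 and 54.5% were called in *LA* against control. These shares were 85, 95.7 and 98.5% in sgFOS against sgScr, and 3.17, 50.7 and 92.2% in sgScr against *LA*. Of the calls, 5.26, 6.57 and 4.95% were false in the 3 comparisons, in that order. Plots were made with Python 3.11.15 and matplotlib 3.10.9. Promoter sequences came from RefSeq.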

Additional observations from a re-analysis of the deposited data

How the results depend on the processing

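Counts of called genes moved with the model. Of the fold changes of the 21, 30 and 28 genes followed singly in the 3 comparisons, over all alternatives, 283 of 336 in *LA* against control, 352 of 478 in sgFOS against sgScr and 335 of 448 in sgScr against *LA* kept direction and call, 32, 106 and 99 lost the call, 21, 20 and 14 gained it, and 0 changed direction. Other members did change direction: in *LA* against control, 12 to 17 of the 17 glycolytic enzymes and 4 to 8 of the 14 HIF targets had negative values, and the median of the HIF targets was -0.018 with the block in the length and GC fit. The causes were not tested. Genes with few counts, such as *ANKRD37*, *LOX* and *CA9*, are limited by depth, and the filter on a mean of 50 counts gave no value for the lowest members.

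In *LA* against control, genes called higher (1380) numbered 3552 with all 9 libraries in 1 model, 791 with a replicate block, 834 in the length and GC fit and 2505 at the study's threshold, and genes called lower (1434) numbered 3247, 728, 818 and 2472, and 682 scaled by library size alone. Leaving out single libraries gave 185 to 2383 higher and 68 to 2695 lower, lowest without LA replicate 2 and highest without control replicate 2. Glycolytic enzymes called lower (3) numbered 6 with DESeq2, 11 with all 9 libraries, 1 in the length and GC fit with or without the block, 8 at the study's threshold and 0 to 8 when single libraries were left out. HIF targets called higher (0) numbered 2 with all 9 libraries, 2 with the block and length and GC fit together and 1 at the study's threshold, and those called lower (1) numbered 2 with all 9 libraries and 0 to 1 when single libraries were left out.

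In sgFOS against sgScr, genes called higher (1731) and lower (1490) numbered 989 and 828 with DESeq2, 0 and 0 with all 9 libraries, 530 and 288 at the study's threshold, 94 and 34 with a log2 fold change over 1, and 1022 to 1843 and 894 to 1675 when single libraries were left out. Glycolytic enzymes called higher (2) numbered 1 in the length and GC fit and 0 with all 9 libraries, with the block in that fit, at the study's threshold or over 1. Those called lower (2) numbered 1 with DESeq2, with the block alone or in the length and GC fit, and at the study's threshold, 7 in the length and GC fit alone, and 0 with all 9 libraries or over 1. Both gave 0 to 2 when single libraries were left out. HIF targets called lower (7) numbered 0 with all 9 libraries, 2 at the study's threshold, 1 over 1 and 4 to 8 when single libraries were left out.

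In sgScr against *LA*, genes called higher (1534) and lower (1793) numbered 569 and 867 with all 9 libraries, 511 and 719 with the block, 872 and 992 with the block in the length and GC fit, 378 and 884 with a log2 fold change over 1, and 171 to 4938 and 218 to 4988 when single libraries were left out, lowest without sgScr replicate 3 and highest without LA replicate 1. Glycolytic enzymes called higher (9) numbered 3 with all 9 libraries, 1 with the block, 3 with the block in the length and GC fit, 1 over 1 and 0 to 15 when single libraries were left out. Those called lower (0) numbered 1 with DESeq2, library size alone, no filter, the length and GC fit or the study's threshold, and 0 to 2 when single libraries were left out. HIF targets called higher (3) numbered 2 to 7 when single libraries were left out, and those called lower (0) numbered 1 with DESeq2 or at the study's threshold and 0 to 3.

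Same-numbered libraries did not deviate together (correlations of -0.248 in *LA* against control, -0.131 and 0.0178 in sgFOS against sgScr, and -0.0137 and -0.0203 in sgScr against *LA*). The labels name no pairing, and these correlations cannot decide whether libraries were paired, as deviations mirror each other in a group of 2 libraries. The replicate block was therefore used only as an alternative. A crossed block, chosen after seeing the data, called 1977 higher and 1901 lower in *LA* against control.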
